A study of Mus musculus with 12 samples.

Results

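The transcriptome of MB49 cells, a mouse bladder cancer line, was compared between 3 libraries of cells given 8 Gy of radiation and 3 libraries of untreated control cells. These 6 libraries, out of 12 in the series, are those labelled with the line MB49, its genotype WT and either the treatment 8 Gy or Control, and every gene of the count table was considered. Both groups were grown in DMEM with serum and antibiotics, and RNA was taken from the treated cells after 48 h of culture. How long the controls were cultured is not in the labels, so the dose cannot be told apart from time in culture. The study's text also speaks of senescent cells, but the labels of the 6 libraries mention only control or 8 Gy. Nothing says that the 3 libraries of a group were separate cultures, and p-values therefore measure the spread between libraries within groups, which may be technical. The other 6 libraries were KPC pancreatic ductal adenocarcinoma cells with the same treatments (3 control and 3 at 8 Gy). They were fitted together with the MB49 libraries, so all groups share a single estimate of the spread behind the p-values. The KPC libraries also served to test where the MB49 response differed.

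The MB49 libraries held 19006015 to 24717336 counts, of which the 100 most abundant genes took 20.5 to 21.4% in the controls and 27 to 27.5% after 8 Gy. Across genes the libraries of a group correlated with r of 0.979 to 0.992, against 0.891 to 0.902 between the groups. Control replicate 3 stood apart. On an axis from the mean of the other controls (0) to that of the irradiated libraries (1) it lay at 0.129, while controls 1 and 2 lay at 0.00572 and -0.0135. It also held 59 genes with at least 20 counts that had at most 2 counts in each other MB49 library, against 0 to 4 such genes in the others. Among the 59 were Vil1, Cdx2, Lypd8 and Epcam, which belong to intestinal or other simple epithelia, and the connective tissue genes Col1a2 and Postn, all chosen after their values were seen. In size, apparent falls of Col3a1, Acta2, Tagln and Myl9 rested mainly on this library (24.7 CPM against 2.38 and 3.16 CPM for Col3a1 in the other controls). These falls are not counted as examples below. Col3a1 was still lower after 8 Gy than in controls 1 and 2, at 0.2275 to 0.3157 against 3.52 and 2.809 CPM of the library total. Values without this library are given beside the results that it moved most.

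Markers of the line went only partly with its label. Of 14 urothelial genes, the uroplakin genes Upk2, Upk3a, Upk1b and Upk3b had 0 to 2 counts over each group, while the urothelial regulators Gata3 and Foxa1 were present and fell by 1.88 and 1.02 on the log2 scale. The 3 urothelial list genes that rose were Krt14, Krt5 and Grhl3 (3.40, 2.59 and 5.79, with 3.37 for Krt5 without control replicate 3), each from under 1 CPM. The simple epithelial keratins Krt8 and Krt18 were abundant in every library, together with the mesenchymal filament gene Vim, and Epcam had 0 counts in 5 of the 6. Defining genes of leukocytes were at or near 0, with 0 counts of Ptprc in the controls and 1 after 8 Gy and 0 counts of Aif1 and Fcer1g in all 6. The 11 macrophage genes summed to 71.7 to 76.5 CPM (of the library total) in the 6 libraries, most of it Cd14, while Mrc1, the mannose receptor gene, rose from 2.55 ± 0.0853 to 15.9 ± 4.76 CPM. Lyz2 rose by 1.88 but was scarce, with 14 counts over the controls and 40 after 8 Gy. Fibroblast genes summed to 61.9, 72.3 and 113.6 CPM in the controls and 143.3 to 209.8 CPM after 8 Gy. Dcn was the largest item in each library, with Col3a1 and Col1a1 next in control replicate 3, and Pdgfra rose with it (1.83). Thy1, Lum and Postn had 0 counts after 8 Gy and also in controls 1 and 2. Their 2, 17 and 106 control counts all came from control replicate 3.

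Ionizing radiation breaks DNA and activates p53, which induces genes of cell cycle arrest, repair and death. Interferons signal through JAK kinases and STAT factors to 2 kinds of promoter element: the ISRE, bound by complexes of STAT factors and IRF9 or by IRF1, and the GAS element, bound by pairs of STAT factors. The factor MYC in turn drives the building of ribosomes, and the growth factor, YAP and SRF pathways control immediate early and cytoskeletal genes.

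In the irradiated MB49 cells most measured genes stood at a different level from the controls. Of 14362 genes tested, 5066 rose (35.3%) and 4540 fell (31.6%), 66.9% in all, at a Benjamini-Hochberg adjusted p under 0.05 in edgeR's quasi-likelihood test. By at least 2-fold, 2972 rose (20.7%) and 2496 fell (17.4%), and by at least 16-fold 314 rose and 126 fell. The 3 libraries of one group lay entirely above or below the 3 of the other for 9055 of the 9606 genes called, against 67.4% of all genes tested. The median log2 fold change over all genes was 0.04, which is the level against which every list below is read. Counts of risen and fallen genes in a list are likewise read against 35.3% and 31.6% of all genes. CPM are counts per library size, scaled by TMM factors to a common size, and a fold change is therefore relative to the bulk of genes. Scaled by library totals alone, the median gene moved down by 0.28 and the split became 3821 higher and 5850 lower (39.5% of calls higher, against 52.7%). The direction of lists with a median near 0 can depend on this, and values under totals alone are given for some of them. Values in parentheses are log2 fold changes of 8 Gy over control ± SE, with the adjusted p where one follows, and levels given as mean ± SD have n = 3. In bulk RNA, a change in the share of cells that express a gene and a change of its level per cell cannot be told apart.

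**Figure D1:**
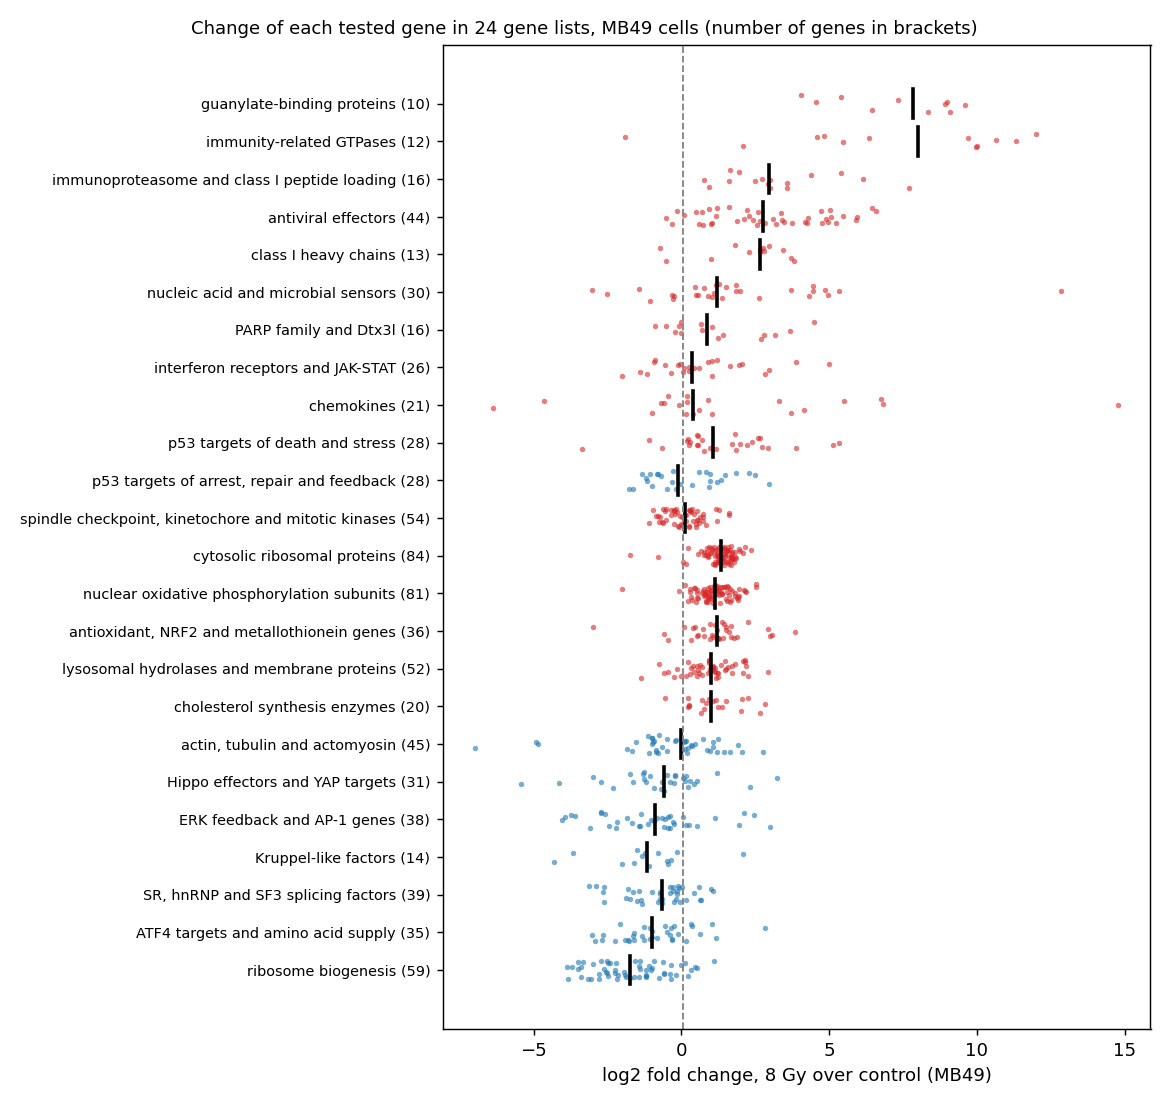
Log2 fold change (8 Gy over control, edgeR) of each tested gene in 24 gene lists in MB49 cells, 1 point per gene, with the list median as a black bar and the median of all 14362 genes (0.04) as a dashed line. Lists with a median above it are red and the others blue. Immunity-related GTPase and guanylate-binding protein genes lay furthest to the right, with medians of 8.02 and 7.85, and ribosome biogenesis genes furthest to the left with a median of -1.73.

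Genes of interferon signalling changed in both directions, and the receptor genes were mixed. Ifnar2, a subunit of the type I interferon receptor, rose (0.89 ± 0.12, adjusted p = 2.80e-06), while Ifngr1, the ligand-binding chain of the interferon gamma receptor, fell by 0.88 ± 0.10 on the log2 scale (adjusted p = 7.12e-07). The transcription factor gene Stat2 (2.83), Irf9 (2.54) and the feedback inhibitors Socs1 (3.87) and Usp18 (2.95) rose, whereas Cish, an inhibitor of STAT5 signalling, fell by 2.004. Irf1, which encodes an activator of interferon-stimulated genes, stood at 164, 147 and 147 CPM in the controls and 1400.0, 1336 and 1154 CPM after 8 Gy (3.09 ± 0.12, adjusted p = 1.57e-12). Irf7, the amplifier of type I interferon production, rose by 4.86, and Irf3, the factor that starts it, fell by 1.299. Of the 26 receptor and JAK-STAT genes tested, 13 rose and 7 fell (median 0.35). With libraries scaled by totals alone, 11 rose and 9 fell (median 0.05). By the test of the difference, the log2 fold change was lower (less positive or more negative) than in KPC cells for 12 of the 26 and higher for 3.

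All 10 guanylate-binding protein genes tested rose, with a median log2 fold change of 7.85. These GTPases attack the membranes of intracellular pathogens. Gbp2 stood at 4.18, 5.28 and 6.33 CPM in the controls and 2507, 2397 and 2672 CPM after 8 Gy, and Gbp3 rose from 0.529 ± 0.116 to 173 ± 31.3 CPM. Of 12 immunity-related GTPase genes, 11 rose (median 8.02, or 7.10 with genes at 0 counts set at their bound) and Irgq fell by 1.91. Tgtp1, Tgtp2 and Gm12250 had 0 counts in all 3 controls and reached means of 14.02, 22.4 and 8.90 CPM, at least 364-fold, 581-fold and 231-fold higher against a floor of 3 counts over the control group. Igtp rose from 0.281 ± 0.0420 to 299 ± 5.94 CPM (10.02 ± 0.20, adjusted p = 1.43e-15). Some members of these families are near-identical copies whose reads may be shared between them.

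The promoters of 4 interferon-induced genes are shown because each holds at least 1 of the 2 elements within 250 bases before to 50 bases after the start. Capitals mark the ISRE core (GAAA, any 2 bases, GAAA) or the GAS element TTCNNNGAA, searched on both strands, and the sequences and positions are RefSeq's on build GRCm38.p6. They are Gbp2 (chr3:142620413-142620712, plus strand), Igtp (chr11:58199306-58199605, plus strand), the first of 2 starts of Irf1 (chr11:53769764-53770063, plus strand) and Cxcl10 (chr5:92348840-92349139, minus strand).
Gbp2: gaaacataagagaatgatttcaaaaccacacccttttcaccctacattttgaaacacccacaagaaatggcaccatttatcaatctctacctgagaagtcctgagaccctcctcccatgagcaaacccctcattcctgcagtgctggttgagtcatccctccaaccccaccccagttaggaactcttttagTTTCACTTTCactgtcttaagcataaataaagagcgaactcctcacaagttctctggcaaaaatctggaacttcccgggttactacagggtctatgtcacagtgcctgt
Igtp: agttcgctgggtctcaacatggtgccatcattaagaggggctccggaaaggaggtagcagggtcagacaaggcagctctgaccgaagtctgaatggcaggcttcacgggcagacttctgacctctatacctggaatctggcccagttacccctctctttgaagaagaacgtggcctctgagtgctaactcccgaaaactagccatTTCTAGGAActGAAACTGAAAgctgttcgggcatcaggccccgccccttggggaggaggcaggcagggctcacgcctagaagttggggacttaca
Irf1: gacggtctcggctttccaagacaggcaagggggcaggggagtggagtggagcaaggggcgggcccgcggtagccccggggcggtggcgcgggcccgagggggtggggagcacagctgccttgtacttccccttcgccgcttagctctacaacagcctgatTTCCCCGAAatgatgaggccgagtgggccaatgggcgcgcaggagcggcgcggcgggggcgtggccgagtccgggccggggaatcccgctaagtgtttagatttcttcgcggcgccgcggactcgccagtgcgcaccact
Cxcl10: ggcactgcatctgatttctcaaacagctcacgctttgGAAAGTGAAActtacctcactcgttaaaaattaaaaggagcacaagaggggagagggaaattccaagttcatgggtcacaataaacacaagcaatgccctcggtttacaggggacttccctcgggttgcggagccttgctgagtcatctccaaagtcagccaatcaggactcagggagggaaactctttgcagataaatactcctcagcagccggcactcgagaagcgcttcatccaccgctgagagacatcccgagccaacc
The ISRE core of Gbp2 begins at base -59 from the start, that of Igtp at -34, next to a GAS element at -45, and that of Cxcl10 at -213. In Irf1 a GAS element begins at -90. RefSeq promoters were matched to 10343 of the 14362 genes tested. A gene was counted as holding an element if any of its starts did, whereas shares of all promoters count each start, so the units differ. The ISRE core stood in 40 of 208 genes that rose by 16-fold or more (19.2%), in 6.7% of those that rose by 2-fold or more, in 2.64% of those that fell by 2-fold or more and in 3.8% of all tested genes (3.44% of all 32851 promoters in the table). The GAS element stood in 12.5% of the 16-fold group, against 8.15% of all tested genes. The AP-1 site TGANTCA, the element of FOS and JUN dimers, stood in 20.2% of the same 16-fold group, against 6.85% of all tested genes and 7.81% of all promoters. By list, the ISRE core was in 4 of 4 guanylate-binding protein genes with a promoter in the table, 7 of 10 immunity-related GTPase genes and 16 of 37 antiviral effector genes, but in 1 of 7 interferon regulatory factor genes, 2 of 9 class I heavy chain genes, 1 of 15 chemokine genes and 0 of 10 genes of nitric oxide, arginine and tryptophan metabolism. A match of letters is not evidence that a factor binds there.

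Antiviral effectors rose almost throughout, 37 of 44 with a median of 2.75 (2.64 with genes at 0 counts set at their bound). Oligoadenylate synthetase genes were among the highest (Oasl2 6.60, Oas1a 5.04), as were the GTPase gene Mx2 (5.94) and Xaf1, an interferon-induced gene of apoptosis (5.48). Rnf213, a giant ubiquitin ligase, was the one that fell, by 0.53 ± 0.22 on the log2 scale (adjusted p = 0.0463), a call lost in 5 of the 6 fits without 1 MB49 library (log2 fold changes of -0.76 to -0.40) and with an offset for gene length (-0.12), with a log2 fold change of 1.33 in KPC cells. Of 30 sensors of nucleic acids and microbes 22 rose and 2 fell. The pyrin-domain genes Ifi203 (4.87), Ifi205 (4.97) and Ifi207 (5.34) rose, the latter pair from a few counts, with log2 fold changes of 5.86 and 7.03 for Ifi205 and Ifi207 without control replicate 2 and 4.74 for Ifi207 without control replicate 1. Likewise higher was Sting1, the adaptor of cytosolic DNA sensing (1.16). The surface receptor gene Tlr4 and its adaptor gene Myd88 fell by 1.45 and 1.06. The PARP family split by member: Parp9 (3.66), its partner ubiquitin ligase gene Dtx3l (4.48), Parp12 (2.79) and Parp14 (3.16) rose strongly, while Parp6 and Parp8 fell by 0.91 and 0.53, and 4 of the 16 were not called.

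All 16 genes of the immunoproteasome and class I peptide loading rose (median 2.96), and 11 of 13 class I heavy chain genes rose with none called lower (median 2.67). In other settings some heavy chain genes were called lower: 2 with libraries scaled by totals alone, 1 without control replicate 3 and 1 with an offset for gene length. With no expression filter, where more genes were tested, 3 were. The catalytic subunit gene Psmb8 rose from 2.55 ± 0.620 to 179 ± 13.9 CPM (6.14 ± 0.17, adjusted p = 2.90e-14). Tap1, which encodes a subunit of the transporter that carries peptides into the endoplasmic reticulum, stood at 30.8, 25.2 and 30.1 CPM in the controls and 1310.2, 1313 and 990.1 CPM after 8 Gy. Among 42 constitutive proteasome genes 24 rose and 8 fell (median 0.60, or 0.23 with 20 higher and 12 lower with an offset for gene length), and the regulator gene Psme3 fell by 2.43 ± 0.13 on the log2 scale (adjusted p = 4.24e-11) while Psme1, its interferon-induced relative, rose by 3.56. MHC class II chains remained scarce: H2-Eb1 and H2-Ab1 rose by 5.02 and 3.93 but reached means of only 3.13 and 1.45 CPM, and all their control counts (0.304 CPM each) came from control replicate 3, which makes the fold changes depend on that library (9.16 and 8.06 without it, against controls at 0, and 4.41 to 4.42 and 3.33 without control replicate 1 or 2). Cd74, the invariant chain that escorts class II, went the other way, from 134 ± 13.1 to 86.9 ± 9.96 CPM (-0.62 ± 0.13, adjusted p = 0.000326), with a log2 fold change of 2.54 in KPC cells (MB49 minus KPC -3.16 ± 0.18, adjusted p = 1.47e-09).

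**Figure D2:**
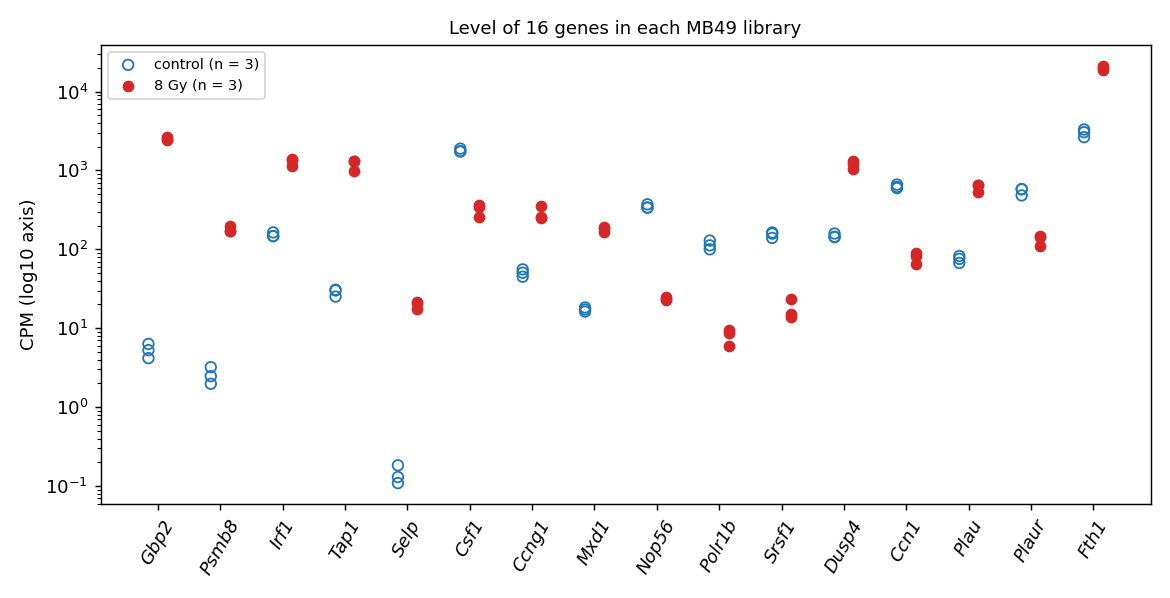
CPM (log10 axis) of 16 genes in each MB49 library, with 3 control libraries as open circles and 3 libraries after 8 Gy as filled circles. Only genes whose 2 groups do not overlap were taken for the figure, which holds for 67.4% of all genes tested. Gbp2 and Selp show the widest gaps.

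Secreted factors went in both directions. Of 21 chemokine genes 10 rose and 5 fell, and Ccl20, which draws dendritic and Th17 cells, fell by 6.37 and Ccl2, which draws monocytes, by 0.99 (1.65 with the length offset described below). Without control replicate 3, 2 chemokine genes fell. Csf1, the growth factor of macrophages, was among the largest losses of transcript in MB49 cells, with 1887, 1736 and 1753 CPM in the controls and 365, 347 and 259 CPM after 8 Gy (-2.47 ± 0.14, adjusted p = 1.25e-10), and no library of one group reached the other. Csf3, which drives neutrophil production, moved the other way, from 32.1 ± 2.47 to 282 ± 36.6 CPM (3.14 ± 0.14, adjusted p = 6.17e-12). Il15, a growth factor of natural killer and memory T cells, rose by 3.34, Il18bp, which neutralizes IL-18, by 4.14, and Il24 by 7.05 (8.74 without control replicate 1, 6.46 without control replicate 2, from a few counts). Of 25 genes of the TNF superfamily and its receptors 13 rose and 4 fell. Ngfr, the neurotrophin receptor p75, rose from 0.848 ± 0.179 to 24.6 ± 5.76 CPM (4.85 ± 0.28, adjusted p = 1.06e-10) and Tnfrsf12a, the TWEAK receptor, fell by 2.40 ± 0.17 on the log2 scale (adjusted p = 1.46e-09), or by 3.19 with the length offset.

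The selectin genes, whose products capture leukocytes on activated endothelium, rose in these tumour cells. Selp stood at 0.109, 0.183 and 0.130 CPM in the controls and 21.3, 20.7 and 17.4 CPM after 8 Gy, and Sele at 0.327, 0.293 and 0.173 CPM in the controls and 20.5, 20.4 and 21.4 CPM after 8 Gy. Their log2 fold changes were 7.08 ± 0.28, adjusted p = 9.11e-11 and 6.24 ± 0.25, adjusted p = 1.19e-10, while the 7 endothelial marker genes together summed to at most 3.18 CPM of a library's total. Icam1, the integrin ligand that interferon and NF-kB usually raise, fell by 0.85 ± 0.16 on the log2 scale (adjusted p = 0.000147), with a log2 fold change of 4.02 in KPC cells. Of 16 genes of nitric oxide, arginine and tryptophan metabolism 11 rose and 4 fell (median 1.05). Nos2, the inducible nitric oxide synthase gene, stood at 102, 84.8 and 77.5 CPM in the controls and 2710.5, 2453 and 1739 CPM after 8 Gy (4.71 ± 0.20, adjusted p = 2.96e-12), and Ido1, which degrades tryptophan, had 0 counts in all 3 controls and reached 1.322 CPM, at least 34.3-fold higher against the same floor. Ass1, which remakes arginine from citrulline, rose from 34.2 ± 2.79 to 235 ± 30.3 CPM (2.78 ± 0.13, adjusted p = 8.50e-12), and the cationic amino acid transporter gene Slc7a1 fell from 931 ± 221 to 189 ± 28.1 CPM (-2.297 ± 0.19, adjusted p = 1.22e-08). Wars1, the tryptophanyl-tRNA synthetase gene that interferon gamma induces in many cells, fell by 1.26 ± 0.13 on the log2 scale (adjusted p = 2.23e-07), with a log2 fold change of 1.69 in KPC cells. Complement and acute phase genes mostly rose (17 of 25, 3 fell), C4b by 7.98 and Serpina3g by 5.82. Of 27 genes of NF-kB subunits and regulators 6 rose and 14 fell, and Rela, the p65 subunit gene, fell from 555 ± 60.6 to 143 ± 31.4 CPM (-1.95 ± 0.15, adjusted p = 5.55e-09).

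The p53 target lists differed in their balance. Of 28 death and stress targets 19 rose and 2 fell (median 1.08), while of 28 targets of arrest, repair and feedback 13 rose and 12 fell (median -0.11). With libraries scaled by totals alone, 17 rose and 2 fell in the death and stress list. In the arrest list 11 then rose and 15 fell. Ccng1, a cyclin G gene that p53 induces directly, stood at 45.0, 55.7 and 50.5 CPM in the controls and 256, 248 and 354 CPM after 8 Gy (2.51 ± 0.16, adjusted p = 5.25e-10). Ces2e and Dcxr, a carboxylesterase and a carbonyl reductase gene, showed the widest rises of the death and stress list, from 1.64 ± 0.690 to 66.0 ± 7.52 CPM (5.35 ± 0.23, adjusted p = 2.88e-12) and from 3.14 ± 0.921 to 109 ± 8.86 CPM (5.12 ± 0.20, adjusted p = 1.37e-12, and 4.52 with the length offset). Fas, the death receptor gene, rose by 2.21 and Perp, a membrane protein gene of desmosomes and p53-dependent death, by 3.86 (6.75 without control replicate 3, which held most of its few control counts, and 3.25 without control replicate 2). On the falling side, Gadd45a, a growth arrest gene, fell by 1.06, the stress regulator gene Sesn2 by 0.84 and the ribonucleotide reductase gene Rrm2b by 0.99. Some of these respond to pathways other than p53 as well.

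Of 29 cyclins, kinases, inhibitors and E2F factors of G1 and S phase 12 rose and 8 fell (median 0.13, or -0.16 with libraries scaled by totals alone). These were 41.4% and 27.6% of the list, against 35.3% and 31.6% of all genes. The CDK4 and CDK6 inhibitor genes Cdkn2d and Cdkn2c rose by 2.50 and 1.32, and the pocket protein genes Rb1 and Rbl2 by 2.01 and 1.60. Ccnd2, a D cyclin gene, fell from 136 ± 11.8 to 41.1 ± 2.54 CPM (-1.73 ± 0.12, adjusted p = 8.83e-10), and Ccnd1 was not called (-0.09 ± 0.10, adjusted p = 0.454). Of 54 genes of the spindle checkpoint, kinetochore and mitotic kinases 19 rose and 14 fell (median 0.13, or 0.07 without control replicate 3), but 10 rose and 22 fell when libraries were scaled by totals alone. The 19 and 14 were 35.2% and 25.9% of the list, against 35.3% and 31.6% of all genes. Anln, the cytokinesis scaffold gene, fell from 187 ± 33.9 to 86.6 ± 9.68 CPM (-1.11 ± 0.15, adjusted p = 4.41e-06). Among death genes, the effector caspase gene Casp6 (3.19) and the inflammatory Casp1 (4.40) rose, whereas Fadd, the adaptor below death receptors, fell from 30.9 ± 2.87 to 3.32 ± 0.461 CPM (-3.22 ± 0.16, adjusted p = 2.47e-11) and Bcl2 fell by 1.93.

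Most genes that build ribosomes fell, while most genes of the ribosome's own proteins rose. Of 59 ribosome biogenesis genes 51 fell and 3 rose, with a median of -1.73, against 31.6% of all genes that fell. Nop56, a core protein of the particles that methylate ribosomal RNA, stood at 339, 337 and 372 CPM in the controls and 22.8, 25.1 and 23.4 CPM after 8 Gy (-3.88 ± 0.12, adjusted p = 6.18e-14). Polr1b, the second-largest subunit of RNA polymerase I, stood at 129, 112 and 100.04 CPM in the controls and 9.37, 8.82 and 5.87 CPM after 8 Gy (-3.83 ± 0.17, adjusted p = 5.82e-12). In both genes every irradiated library lay far below every control. Tsr1, a maturation factor of the small subunit, fell by 3.69, the nucleolar transport protein gene Nolc1 by 3.49 and the pseudouridine synthase gene Dkc1 by 2.98. The 3 that rose were Npm1, Npm3 and Polr1c (1.10, 0.45 and 0.53). The call of Npm3 was lost in 4 of the 6 fits without 1 MB49 library, where its value was 0.33 to 0.71, and its sign turned with the length offset (-0.14). The call of Npm3 was also lost with the MB49 libraries alone (0.37) and without KPC control replicate 1 (0.36), and those of Npm3 and Polr1c with libraries scaled by totals alone (0.16 and 0.23) and with the length offset (0.19 for Polr1c). Myc, the activator of this programme, fell by 4.21 and its partner gene Max by 1.25. Genes of some of their antagonists rose: Mxd1 from 17.3 ± 1.04 to 182 ± 13.5 CPM (3.40 ± 0.12, adjusted p = 2.73e-13), Mxd3 by 1.99 and Mxi1 by 1.298. Of the 11 Myc network genes tested 5 rose and 4 fell, with a median of -0.02. These were 45.5% and 36.4% of the list, against 35.3% and 31.6% of all genes. Mycl and Mga were also among those that fell. The E-box CACGTG, the site of MYC and MAX pairs and of other factors, stood at any start of 12 of 51 ribosome biogenesis genes (23.5%), against 11.4% of all tested genes and 7.15% of all promoters, the last counted per start. Shown are Tsr1 (chr11:74897830-74898129, plus strand) and Nop2, which encodes a ribosomal RNA methyltransferase and fell by 2.48 (chr6:125131633-125131932, plus strand), from RefSeq on GRCm38.p6 with the E-box in capitals.
Tsr1: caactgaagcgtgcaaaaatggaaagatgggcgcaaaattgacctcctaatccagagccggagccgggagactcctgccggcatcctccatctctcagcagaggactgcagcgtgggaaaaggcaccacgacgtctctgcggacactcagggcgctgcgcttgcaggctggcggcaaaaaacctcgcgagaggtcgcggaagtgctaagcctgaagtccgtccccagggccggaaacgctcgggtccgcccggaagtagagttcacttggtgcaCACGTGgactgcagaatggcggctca
Nop2: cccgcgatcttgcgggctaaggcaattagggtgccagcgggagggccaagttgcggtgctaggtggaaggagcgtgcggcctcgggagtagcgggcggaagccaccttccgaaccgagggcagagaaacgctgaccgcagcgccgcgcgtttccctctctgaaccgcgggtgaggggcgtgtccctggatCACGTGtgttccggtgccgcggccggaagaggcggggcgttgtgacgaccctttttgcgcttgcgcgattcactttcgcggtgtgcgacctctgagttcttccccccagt
The E-box begins at base 25 in Tsr1 and at -60 in Nop2.

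Cytosolic ribosomal protein genes rose in 78 of 84 cases and fell in 2, with a median of 1.35, against 35.3% of all genes that rose. They took 4.56, 4.49 and 6.58% of all counts in the controls and 8.81, 10.4 and 11.3% after 8 Gy, with control replicate 3 nearest to the irradiated libraries. Short genes lay higher in general. The octile of shortest genes (median 831 bases) had a median log2 fold change of 0.64 and the longest (6961 bases) one of -0.28, or 0.84 and -0.35 without control replicate 3. With an offset that removes this trend, ribosomal protein genes had a median of 0.69 with 72 higher and 3 lower, and of the ribosome biogenesis genes 52 were lower and 1 higher. Nuclear genes of oxidative phosphorylation were likewise up in 74 of 81 cases (median 1.13, or 0.54 with 57 up and 5 down under the length offset). Uqcrh, a small subunit of complex III, rose from 28.7 ± 13.1 to 164 ± 37.8 CPM (2.52 ± 0.28, adjusted p = 5.32e-06, and 1.66 with the length offset). Mitochondrial ribosomal protein genes were mixed (42 up and 16 down of 78, median 0.41 and 0.06 with the length offset).

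**Figure D3:**
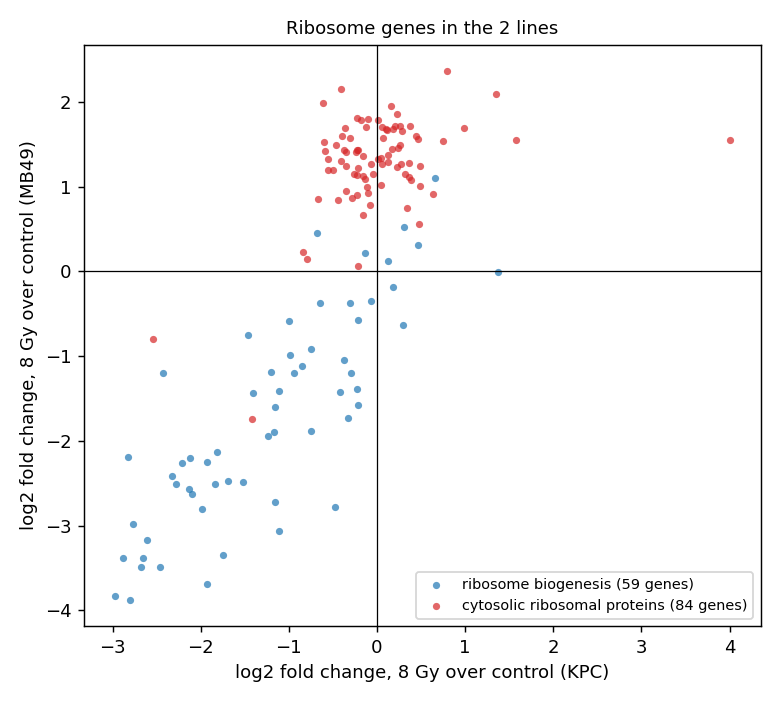
Log2 fold change in MB49 cells (vertical) against that in KPC cells (horizontal) for ribosome biogenesis genes and cytosolic ribosomal protein genes, 1 point per tested gene, with lines at 0. Biogenesis genes lay low on both axes, with medians of -1.73 and -1.16, while ribosomal protein genes lay above 0 in MB49 cells (median 1.35) and around 0 in KPC cells (-0.08).

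Supply of amino acids and the steps from gene to protein also fell in part. Of 35 ATF4 targets and amino acid supply genes 25 fell and 5 rose (median -1.01). Atf5, a stress-induced transcription factor gene, stood at 541, 456 and 747 CPM in the controls and 99.4, 100.5 and 79.2 CPM after 8 Gy (-2.64 ± 0.17, adjusted p = 6.76e-10). Slc38a2, a transporter of small neutral amino acids, fell by 2.91, Slc7a5, the large neutral amino acid transporter gene, by 1.82, and Chac1, a glutathione-degrading enzyme gene, by 3.01. Cebpb and Ddit3 went the other way (1.16, or 1.78 without control replicate 3, and 0.62, or 0.02 with adjusted p = 0.889 under the offset for gene length described above). Of 20 cytosolic tRNA synthetase genes 14 fell and 3 rose, Iars by 2.24 against a rise of 1.54 for Kars. Among 39 splicing factor genes 23 fell and 6 rose. The SR protein gene Srsf1 stood at 139.5, 158 and 163 CPM in the controls and 15.1, 13.7 and 23.4 CPM after 8 Gy (-3.14 ± 0.19, adjusted p = 2.03e-10), and Srsf3, Srsf6 and Srsf7 fell by 2.62, 2.91 and 2.66, while Sf3b2, a core spliceosome gene, rose by 1.08. Nuclear pore and transport receptor genes fell more often than they rose (25 and 7 of 49, or 4 rising without control replicate 1 or 3 and 13 rising with the length offset), Xpot, the exporter of tRNA, by 2.84 ± 0.13 on the log2 scale (adjusted p = 5.06e-12). Of 50 translation factor genes 16 rose and 19 fell (32% and 38%, against 35.3% and 31.6% of all genes). Their median was 0.05, or -0.24 with 12 rising and 24 falling when libraries were scaled by totals alone. Eef1a1, which brings tRNA to the ribosome, rose from 6228 ± 264 to 16780.0 ± 620.3 CPM.

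Of 38 genes of ERK feedback and AP-1 25 fell and 6 rose (median -0.89), and many of these genes are induced quickly by growth factors. The immediate early factor genes Egr1 and Ier2 fell by 3.73 ± 0.14 on the log2 scale (adjusted p = 9.81e-13) and 3.96 ± 0.17 on the log2 scale (adjusted p = 4.20e-12), the AP-1 subunit gene Jun by 2.18, and the ERK pathway inhibitors Spry1, Spry4 and Errfi1 by 2.44, 2.59 and 2.73. Dusp4, a nuclear phosphatase of ERK, went against the rest, with 159, 144 and 143 CPM in the controls and 1212, 1315 and 1045 CPM after 8 Gy (3.003 ± 0.19, adjusted p = 3.86e-10). Dusp7 rose with it (2.45). Of 14 genes of the EGF receptor family and its ligands 3 rose and 4 fell. The ligand genes Hbegf and Ereg fell by 2.59 ± 0.11 on the log2 scale (adjusted p = 3.33e-12) and 2.03, the ligand gene Btc rose by 1.72, and Egfr itself was not called (0.06 ± 0.14, adjusted p = 0.733), with a sign that turned between settings.

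Effectors of the Hippo pathway and targets of YAP, its co-activator, also fell more often than they rose (15 fell and 4 rose of 31, median -0.59, or -0.50 with genes at 0 counts set at their bound and -0.33 without control replicate 3). Ccn1, a matricellular target of YAP and SRF, stood at 662, 596 and 618 CPM in the controls and 90.3, 82.6 and 65.1 CPM after 8 Gy (-2.98 ± 0.14, adjusted p = 5.82e-12). Ankrd1 fell from 262 ± 35.1 to 39.7 ± 5.61 CPM (-2.72 ± 0.14, adjusted p = 2.42e-11) and Amotl2 by 4.15. The gene of the co-activator TAZ, Wwtr1, rose by 1.202 and Yap1 fell by 0.38. Of 14 Kruppel-like factor genes 11 fell and 1, Klf12, rose. Notch pathway genes were divided: the receptor genes Notch1 and Notch3 rose by 2.70 and 2.93, and the nuclear effector Rbpj and the target Hes1 fell by 1.52 and 2.11. In the TGF-beta and BMP list Id1 and Id2, targets of BMP signalling, rose by 2.70 and 3.05, and Skil, a repressor that TGF-beta induces, fell by 2.58.

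Genes of the cytoskeleton changed in both directions (14 rose and 20 fell of 45, or 31.1% and 44.4% against 35.3% and 31.6% of all genes). Without control replicate 3, 15 rose and 17 fell. Actb, the beta-actin gene, stood at 10161, 8742 and 9073 CPM in the controls and 3279, 3129 and 2440.4 CPM after 8 Gy (-1.66 ± 0.14, adjusted p = 1.50e-08), the second-largest loss of CPM among all genes. Actg1 fell by 0.97 ± 0.13 on the log2 scale (adjusted p = 4.34e-06), and Srf, which encodes the factor that controls actin genes, by 1.85 ± 0.15 on the log2 scale (adjusted p = 1.21e-08). Beta-tubulin genes rose, Tubb5 from 427 ± 34.8 to 1782 ± 269.8 CPM (2.06 ± 0.13, adjusted p = 4.94e-10) and Tubb3, the neuronal isotype, by 2.77, while the alpha-tubulin genes Tuba1a and Tuba1c fell by 0.99 and 1.13. Vim stood at 2976, 2876 and 3735 CPM in the controls and 12019, 11869 and 10203 CPM after 8 Gy (1.83 ± 0.13, adjusted p = 2.19e-09). Of 12 keratin genes 8 rose, among them Krt14 from 0.596 ± 0.110 to 6.31 ± 0.884 CPM (3.40). The abundant Krt8 and Krt18 were called at 0.32 and 0.40, calls lost with the MB49 libraries alone (0.24 and 0.31), with totals alone (0.03 and 0.10), with the length offset (0.22 and 0.12), without control replicate 2 (0.24 and 0.33), without 8 Gy replicate 1 (0.26 and 0.34) or 2 (0.26 and 0.34) and, for Krt8, without control replicate 1 (0.36). Krt80 fell from 75.6 ± 7.62 to 3.22 ± 0.551 CPM (-4.56 ± 0.15, adjusted p = 2.67e-13). Of 13 factors of epithelial and mesenchymal state 5 rose and 6 fell, with members of both kinds on each side. Snai2, which encodes a repressor of epithelial programmes, fell from 90.4 ± 6.76 to 6.70 ± 1.66 CPM (-3.75 ± 0.18, adjusted p = 5.64e-10), and Grhl3, an epithelial differentiation factor gene, rose by 5.79 to a mean of 2.43 CPM (6.57 without control replicate 1). The repressor gene Snai1 rose by 1.15, and the epithelial genes Esrp1, Grhl2 and Grhl1 fell by 3.94 (4.56 without 8 Gy replicate 3), 1.86 and 1.65.

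In the matrix and at the cell surface, 30 of 61 genes of collagens, laminins and matrix glycoproteins rose and 10 fell. Dcn, a small proteoglycan of connective tissue, rose from 36.1 ± 2.94 to 137 ± 30.3 CPM (1.92 ± 0.16, adjusted p = 1.74e-08), Col5a3 by 2.65, and Fn1, the fibronectin gene, fell by 1.41. Plau, the urokinase protease gene, stood at 82.2, 75.8 and 67.2 CPM in the controls and 649, 646 and 538 CPM after 8 Gy (3.02 ± 0.12, adjusted p = 1.90e-12), and the gene of its receptor, Plaur, at 581, 482 and 575 CPM in the controls and 142, 146 and 111 CPM after 8 Gy (-2.04 ± 0.13, adjusted p = 3.35e-10). The protease gene was high and the receptor gene low in every irradiated library, without overlap of the groups. The desmosomal and adherens junction gene Jup rose by 1.89.

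Of 20 iron handling genes 12 rose and 2 fell (median 0.49). The ferritin chains that store iron made some of the largest gains of RNA: Fth1 stood at 3049.9, 2641 and 3301 CPM in the controls and 19598, 21361 and 18957 CPM after 8 Gy (2.74 ± 0.15, adjusted p = 4.83e-11), and Ftl1 rose from 1438 ± 238 to 8753 ± 735 CPM (2.61 ± 0.16, adjusted p = 2.37e-10). Tfrc, the transferrin receptor gene, rose by 1.92, and Hmox1, which frees iron from haem, by 1.66. Of 36 antioxidant, NRF2 and metallothionein genes 32 rose and 2 fell (median 1.22, or 0.80 with the length offset). Gsta4, a glutathione transferase gene that clears lipid aldehydes, rose by 3.83 ± 0.16, adjusted p = 1.75e-12, and the mitochondrial superoxide dismutase gene Sod2 by 2.92, while Nfe2l2, the gene of NRF2 itself, fell by 0.47. Of 36 chaperone and translocon genes of the endoplasmic reticulum 28 rose and 5 fell, the latter including Hspa5, the central stress chaperone gene (-0.45), and Xbp1 (-0.77).

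Lysosomal genes rose in 39 of 52 cases (median 0.99, 4 fell), and genes of the proton pump V-ATPase in 11 of 19. The protease gene Ctsd rose from 915 ± 89.4 to 3889 ± 607 CPM (2.09 ± 0.14, adjusted p = 8.16e-10) and Tcirg1, a pump subunit gene, by 2.55. The TFEB-type element TCACGTGA, which contains the E-box, stood at any start of 2.17% of all tested genes, against 5 of 43 lysosomal genes (11.6%), and the E-box in 11.4% and in 13 of 43 (30.2%). Ctsd is shown as an example (chr7:142387778-142388077, minus strand), with the element in capitals from base -99.
Ctsd: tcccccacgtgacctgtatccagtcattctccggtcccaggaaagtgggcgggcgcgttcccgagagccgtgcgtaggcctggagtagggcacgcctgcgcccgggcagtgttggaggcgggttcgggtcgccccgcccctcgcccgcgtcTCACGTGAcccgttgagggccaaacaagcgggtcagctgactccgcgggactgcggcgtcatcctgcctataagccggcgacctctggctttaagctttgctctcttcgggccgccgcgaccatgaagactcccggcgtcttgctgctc
Among 20 enzymes of cholesterol synthesis 15 rose and 1, Sqle, fell (median 1.00). Nsdhl, a sterol dehydrogenase gene, rose from 7.79 ± 0.702 to 32.5 ± 2.71 CPM (2.06 ± 0.12, adjusted p = 2.18e-10), Fdft1, which makes squalene, by 2.24, and Hmgcs1, at the head of the pathway, by 0.69 (0.40, adjusted p = 0.052, with libraries scaled by totals alone). Soat2, which esterifies cholesterol for storage, fell from 334 ± 26.5 to 11.02 ± 0.519 CPM (-4.92 ± 0.13, adjusted p = 1.46e-14), and the efflux pump gene Abca1 rose by 2.40. The CCAAT box, the site of NF-Y, stood on either strand at any start of 14 of 15 of these enzymes' genes (93.3%), against 43.5% of all tested genes and 37.4% of all promoters, the last counted per start. Hmgcs1 (chr13:119690101-119690400, plus strand) and Nsdhl (chrX:72918271-72918570, plus strand) are shown with CCAAT (or ATTGG, its complement) in capitals, and in Hmgcs1 also the sterol element TCACNCCAC at base -137, which 1.35% of tested genes hold.
Hmgcs1: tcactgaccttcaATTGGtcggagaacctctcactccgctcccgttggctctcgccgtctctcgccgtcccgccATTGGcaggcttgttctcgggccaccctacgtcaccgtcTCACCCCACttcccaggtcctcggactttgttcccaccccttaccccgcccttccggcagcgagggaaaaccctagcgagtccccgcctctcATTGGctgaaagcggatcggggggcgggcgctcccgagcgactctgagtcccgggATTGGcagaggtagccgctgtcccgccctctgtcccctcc
Nsdhl: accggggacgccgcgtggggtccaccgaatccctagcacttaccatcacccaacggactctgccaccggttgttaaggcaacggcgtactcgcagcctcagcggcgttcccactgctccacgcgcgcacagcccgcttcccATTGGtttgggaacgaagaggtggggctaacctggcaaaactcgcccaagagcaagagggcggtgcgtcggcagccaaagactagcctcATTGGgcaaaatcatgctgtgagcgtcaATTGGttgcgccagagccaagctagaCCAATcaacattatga

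Zinc finger and histone modifier genes fell more often than they rose. Of 294 numbered Zfp genes, mostly zinc finger repressors, 152 fell and 41 rose (median -0.60, or -0.59 with genes at 0 counts set at their bound). Of 56 genes of histone methyltransferases, demethylases and deacetylases 30 fell and 13 rose. H1f0, a linker histone gene, fell from 1283 ± 252 to 320.1 ± 7.75 CPM (-2.003 ± 0.13, adjusted p = 8.29e-10), H2ax, the histone marked at DNA breaks, by 2.13, and Morc2a, a silencing ATPase gene, by 2.75. Of 19 clock genes 6 rose and 9 fell (31.6% and 47.4%, against 35.3% and 31.6% of all genes). The activator genes Bmal1 and Clock fell by 2.17 and 1.36, and the repressor gene Nfil3 fell by 1.49, whereas the output factors Dbp and Tef rose by 2.06 and 1.87. Of 34 long noncoding RNAs and hosts of small nucleolar RNAs 11 fell and 7 rose, 32.4% and 20.6% of the list against 31.6% and 35.3% of all genes. The host gene Snhg17 fell from 192 ± 27.3 to 9.89 ± 0.553 CPM (-4.28 ± 0.15, adjusted p = 2.86e-13) and Snhg16 by 2.39, while the hosts Snhg3 and Snhg8 rose by 1.95 and 1.47 (1.08 and 0.82 with the length offset).

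**Figure D4:**
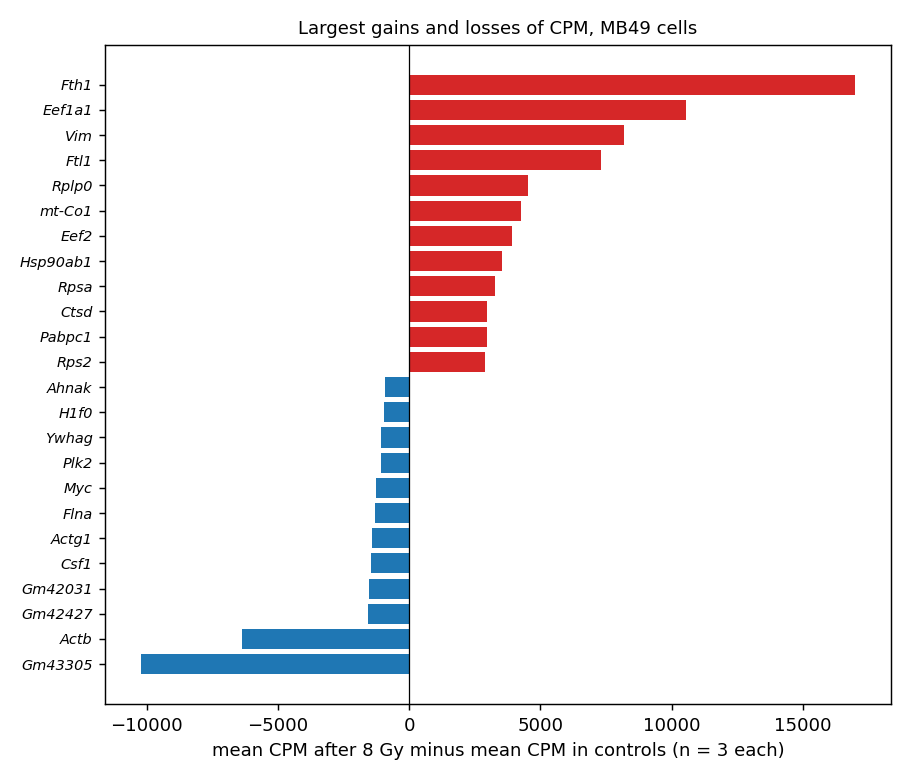
Change in mean CPM (8 Gy minus control) of the 12 genes with the largest gain and the 12 with the largest loss among genes called without overlap, as bars from 0 with the CPM change on the horizontal axis. Fth1 and Eef1a1 led the gains, and Gm43305 and Actb the losses.

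By amount of RNA, 12 genes made the largest gains. Besides Fth1, Ftl1, Eef1a1, Vim and Ctsd they were the ribosomal protein genes Rplp0, Rpsa and Rps2, the mitochondrial gene mt-Co1, Eef2, Hsp90ab1 and Pabpc1. The largest loss belonged to Gm43305, a predicted gene of the annotation, with 17800.0, 16099 and 11152 CPM in the controls and 5310.4, 4945 and 4156 CPM after 8 Gy (-1.64 ± 0.35, adjusted p = 0.00138), where control replicate 3 was the lowest control. Per kilobase of the deposited gene length, Fth1 and Eef1a1 were the most abundant genes after 8 Gy, and Actb and Eef1a1 in the controls. Of genes at 5 CPM or more, Tanc2, a synaptic scaffold gene, showed one of the deepest falls, from 43.2 ± 5.73 to 0.886 ± 0.452 CPM (-5.64 ± 0.26, adjusted p = 6.53e-12). Batf2, an interferon-induced bZIP factor gene, rose from 0.123 ± 0.120 to 126 ± 20.2 CPM (10.01 ± 0.32, adjusted p = 1.35e-13, and 11.02 without control replicate 3), one of the steepest rises among genes with counts in the controls.

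The response of MB49 cells differed from that of KPC cells for 6162 genes (42.9% of those tested) by the test of the difference, with a higher log2 fold change in MB49 for 3160 (22%) and lower for 3002 (20.9%). In both lines 2905 genes rose and 2861 fell, while 488 rose in MB49 and fell in KPC and 403 did the reverse. The log2 fold change of ribosomal protein genes was higher in MB49 for 76 of 84 and lower for 0, and that of oxidative phosphorylation genes higher for 69 of 81 and lower for 0. Mitotic genes were lower in MB49 for 38 of 54 and higher for 4, and 41 rose and 2 fell in KPC cells. Death and stress targets of p53 were higher in MB49 for 13 of 28 and lower for 2, and Ccng1 of the arrest list differed by 1.93 ± 0.22, adjusted p = 3.29e-06. Hippo effectors and YAP targets were lower for 15 of 31 and higher for 3, and Ccn1 had a log2 fold change of 1.03 in KPC cells (MB49 minus KPC -4.01 ± 0.18, adjusted p = 1.19e-10). Of 45 actin, tubulin and actomyosin genes 27 were lower and 3 higher, and Actb had a log2 fold change of 0.81 in KPC cells (-2.47 ± 0.20, adjusted p = 5.95e-08). Plau differed by 2.71 ± 0.17, adjusted p = 3.54e-09, Csf1 by -2.08 ± 0.19, adjusted p = 3.62e-07, Ngfr by 6.15 ± 0.74, adjusted p = 5.80e-06 and Igfbp4, an inhibitor of IGF action that rose by 1.11 in MB49 cells, by 5.19 ± 0.21, adjusted p = 2.76e-11.

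**Figure D5:**
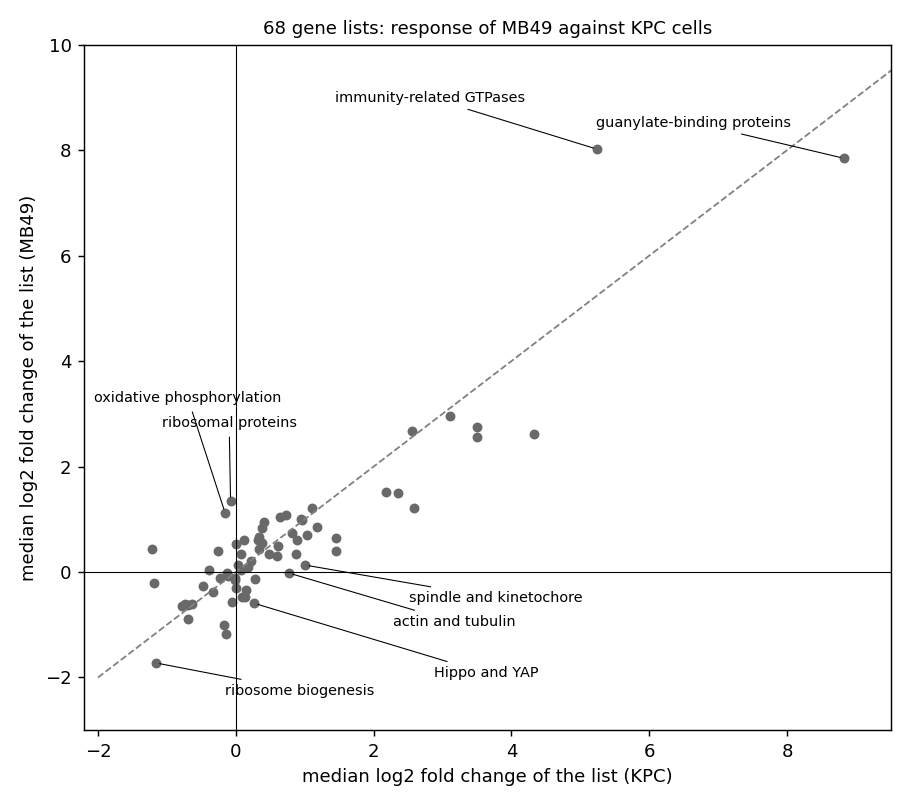
Median log2 fold change (8 Gy over control) of each of the 68 gene lists in MB49 cells (vertical) against KPC cells (horizontal), 1 point per list, with the line of equal response dashed and lines at 0. The lists named in the plot include ribosomal proteins and oxidative phosphorylation above the line and spindle, actin and Hippo genes below it.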

How the data were processed

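RNA-seq libraries of MB49 cells (3 control, 3 at 8 Gy) were tested together with 6 KPC libraries. The authors deposited estimated counts per gene, made with fastp, HISAT2 and StringTie on build GRCm39 per the submitters' processing notes. The counting tool and its strand setting were not given in the sources used here, and deposited means of each group were not used, and 0 per-sample columns went unused. Between 6.2 and 8.7% of values were not whole, and all were rounded. The 525 rows without a symbol (0.184 to 0.449% of MB49 counts) kept their gene identifiers and counted towards library sizes. They were tested where they passed the expression filter.

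After filterByExpr, 14362 genes were fitted over all 12 libraries with edgeR 4.0.16 (R 4.3.3, TMM, robust glmQLFit, glmQLFTest, two-sided, 8 residual degrees of freedom), with a call at p under 0.05 after Benjamini-Hochberg adjustment. SE is the absolute log2 fold change over the square root of F. Adjusted p-values come from this fit unless another setting is named beside them. On simulated counts for the MB49 comparison (13616 genes run), 86 of 100 genes with a true log2 change of 1 and 99 of 100 with 2 were recovered. Only these genes were changed, as many up as down and none of them scarce, and no library was made to stand apart. Such rates may not hold for the real comparison, where 66.9% of genes were called. Alternatives were other scalings and filters, DESeq2 1.42.0, the MB49 libraries alone, left-out libraries, a replicate block and an offset for gene length. The 68 lists were chosen with earlier results of these data known. Genes named were, per list, up to 4 risen and 4 fallen most at 1 CPM or more, or the most abundant where none was called, and any member called for both the response and its difference from KPC. Over all genes they were the 15 steepest in each direction at 5 CPM or more, the 12 largest CPM gains and losses, the 10 most abundant per length and the 10 largest line differences. Lists of up to 16 genes could be named in full. Gata3, Foxa1, Mrc1, Lyz2, Ifnar2, Gadd45a, Ccnd1, Dkc1, Dcn and Hmgcs1 fell outside this rule and were chosen after their values were seen. RefSeq promoters of GRCm38.p6 were used for sequences only. A few items that the naming rule would take are not reported here.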

Additional observations from a re-analysis of the deposited data

Results flagged for a closer look

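The response of 22 named genes ran in opposite directions in the 2 lines, each called in both lines and for the difference (edgeR's quasi-likelihood test, adjusted p of the difference 2.76e-11 to 0.000968). Of these, 16 fell in MB49 cells and rose in KPC cells. Over all 14362 genes tested the balance was the other way, with 403 in this direction and 488 in the reverse. Named genes were partly chosen for their difference from KPC cells. The split among the 22 is therefore not a result about the whole response. Among genes of interferon response, antigen presentation and leukocyte attraction, the MB49 minus KPC difference of log2 fold changes was -4.86 for Cish, -1.86 for Rnf213, -3.16 for Cd74, -5.67 for Ccl2, -4.87 for Icam1 and -2.95 for Wars1. Among targets and parts of the YAP, Notch and SRF pathways and the cytoskeleton it was -4.01 for Ccn1, -3.20 for Ankrd1, -3.87 for Hes1, -2.47 for Actb, -4.66 for Actg1, -2.74 for Srf and -1.95 for Tuba1a. Also in this direction were Krt80 at -4.87, Hspa5 at -1.71 and Tanc2 at -6.65. The other 6 genes rose in MB49 cells and fell in KPC cells, with a difference of 1.14 for Npm3, 3.78 for Id2, 2.42 for Pdgfra, 2.85 for Dbp, 2.45 for Tef and 5.19 for Igfbp4. The calls of Rnf213 and Npm3 in MB49 cells did not hold in every alternative, as given with their values.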

How the results depend on the processing

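The counts of genes higher and lower (5066 and 4540) stayed within 1.5 times in every alternative run: 4345 and 4639 for the MB49 libraries alone, 3821 and 5850 for totals alone, 4766 and 5393 with no filter, 4897 and 4847 with the length offset, 4982 and 4528 with DESeq2, and 4707 to 5152 and 4203 to 4534 leaving out 1 MB49 library. The count for the difference between lines (6162) ran from 5584 to 6547. Equal replicate numbers did not mark a pairing: MB49 libraries with the same number deviated together with r of 0.171, -0.178 and 0.055, and only number 1 correlated best with its own. The replicate block gave 4998 higher, 4530 lower and 6012 for the difference. Of the named genes it ended the call of Krt8 (0.32, adjusted p = 0.0707) and no other. Egfr, not called, turned sign with the MB49 libraries alone (-0.0302), totals alone (-0.244), no filter (-0.0708) and without KPC control replicate 1 (-0.042), and ran from -0.088 to 0.154 leaving out 1 MB49 library. It was called at 0.36 with the length offset. Npm3 was -0.14 with that offset, and the cause of these turns was not tested. With totals alone, Ccnd1 was called at -0.39, Zfp genes that rose went from 41 to 26, splicing factors that rose from 6 to 3, and genes that fell from 2 to 5 (sensors), 4 to 7 (TNF family), 4 to 7 (lysosomal) and 10 to 16 (TGF-beta and BMP), and mitochondrial ribosomal protein genes that rose from 42 to 26. With no filter, matrix genes that fell went from 10 to 20 and iron handling genes that fell from 2 to 5. Depth limits genes with a few counts in the controls, whose fold changes moved most between libraries left out.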
